A study of Mus musculus with 24 samples.

Results

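Chemokines and their receptors were examined in kidney, liver, lung and WAT (white adipose tissue) of young and aged mice. Members were all genes whose RefSeq symbol follows the chemokine nomenclature (Ccl, Cxcl, Cx3cl and Xcl ligands, the matching receptors, and the atypical receptors Ackr1 to Ackr4 and Ccrl2). The rule found 63 symbols, and 58 of them, 35 ligands and 23 receptors, had a probe on the array, out of 22911 symbols matched in all. They had 74 probes, and 14 members had over 1. Ccl21b, Ccl21c, Ccl21d, Ccl27b and Cxcl11 had no matched probe. The series holds 24 Agilent arrays of 1 colour, with RNA from C57BL/6J males at 10 weeks (10W, young) and 90 weeks (90W, aged) and 3 mice per age and tissue. The animals carry no labelled treatment or engineered allele, and the aged livers are numbered 1, 2 and 4, which is the order in which their values are given. Nothing in the labels says whether 1 mouse gave more than 1 tissue.

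Chemokines are small secreted proteins that steer leukocytes by binding G protein-coupled receptors on the cell surface. Inflammatory chemokines are induced by cytokines through NF-kB and interferon signalling and draw neutrophils, monocytes and effector T cells, whereas homeostatic chemokines such as Cxcl12, Cxcl13, Ccl19 and Ccl21a place cells in bone marrow and lymphoid organs. Atypical receptors bind chemokines without G protein signalling and scavenge or present them. Several inflammatory chemokines are also part of the secretory program of senescent cells.

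Levels are given as the log2 processed signal of a gene's brightest probe minus the 75th percentile of the array, so that 0 is the 75th percentile. A change is the mean of the 90W mice minus that of the 10W mice on this log2 scale, with its standard error (SE) from the limma fit. A gene was called when its p, adjusted by the Benjamini-Hochberg method over every gene or unmatched target tested in the tissue, was under 0.05. On each array 58.6% to 71.1% of the probes were well above background, no spot was saturated, and the arrays of a group correlated at 0.933 to 0.996. Defining markers of each tissue (such as Alb in liver, Sftpc in lung, Umod in kidney and Adipoq in WAT) were well above background in their own tissue at both ages, and the summed level of each marker list was highest there. Each tissue was hybridised on a slide of its own, so tissue and slide cannot be told apart and levels were not tested between tissues. With 3 mice against 3, an exact permutation test of a single gene cannot go below p = 0.1.

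The kidney had the most called members. In the aged kidney 41 of 51 tested members were higher and 2 were lower, beside 20.6% higher and 42.6% lower among all 31505 entries tested. The liver had 25 of 44 higher and 1 lower, against 10.5% and 17% of 27906 entries. WAT had 9 of 49 higher and 2 lower, against 2.01% and 0.579% of 30063, and the lung had 7 of 52 higher and 4 lower, against 2.72% and 2.89% of 30327. The median change of the tested members was 2.67 in the kidney, 1.42 in the liver, 0.99 in WAT and 0.23 in the lung, while the median over all entries lay between -0.23 and -0.05 in the 4 tissues. Every aged mouse lay above every young one for 42 kidney members (23.1% of all entries), 28 liver members (16.8%), 23 WAT members (13.7%) and 12 lung members (11.6%). Every aged mouse lay below every young one for 2 (47.6%), 2 (33.1%), 4 (15%) and 8 (24.2%) members in that order. In whole tissue, more cells that express a gene and more RNA per cell cannot be told apart.

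Scaling to the spike-in controls in place of the 75th percentile moved these shares. The median change over all entries became -0.04 in the kidney, -0.74 in the liver, 0.19 in WAT and -0.38 in the lung. The shares called higher and lower became 12.2% and 3.75% in the kidney, 3.81% and 13% in the liver, 3.77% and 0.253% in WAT, and 2.31% and 11.8% in the lung. Under that scaling 41 kidney members were higher and 0 were lower by limma (1 had an unadjusted p under 0.05), 18 liver members were higher and 2 lower, 16 WAT members were higher and 1 lower, and 8 lung members were higher and 6 lower. To be tested, a member needed a signal well above background in 3 or more of a tissue's 6 samples. In 8 of the 51 members tested in the kidney, 5 of 44 in the liver, 1 of 49 in WAT and 0 of 52 in the lung, no young array was well above background, so that these members passed through the aged mice alone. Ccl26, Cxcl3 and Xcr1 were tested in no tissue, and 42 members were tested in all 4.

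**Figure D1:**
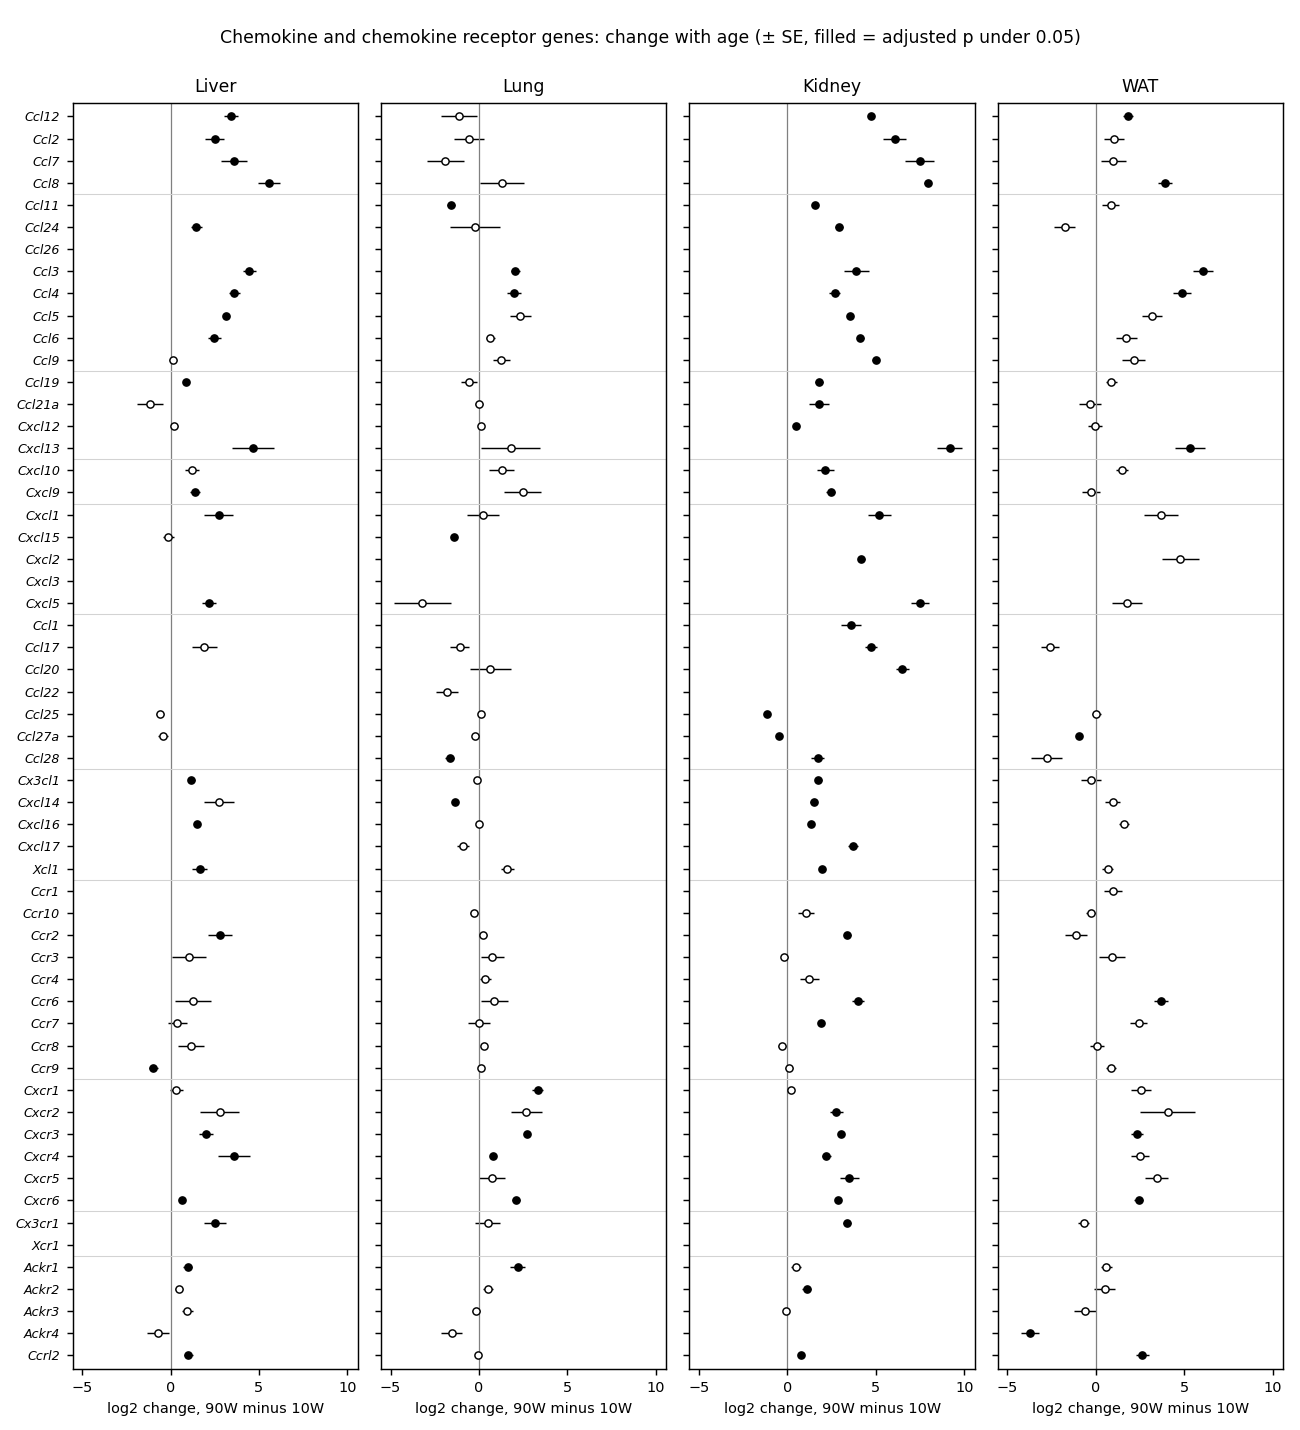
Change from 10W to 90W (log2, x axis) of 57 of the 58 members (y axis, grouped by role, from monocyte-attracting ligands at the top to atypical receptors at the bottom) in the 4 tissues, with bars for the SE, filled points for adjusted p under 0.05 and no point where a member was not tested. Filled points lie to the right of 0 for 40 kidney members, 24 liver members, 9 WAT members and 7 lung members.

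Ccl3, Ccl4, Cxcr3 and Cxcr6 were called higher in all 4 aged tissues, and no other member was. Ccl3 and Ccl4 are macrophage inflammatory proteins, Cxcr3 is the receptor of Cxcl9 and Cxcl10 on activated T and NK cells, and Cxcr6 binds Cxcl16 on T and NKT cells. Ccl3 was at -5.06, -5.98 and -4.51 in the young livers and -0.41, -0.96 and -0.81 in the aged livers. No young liver was well above background for it, and the rise was at least 14.9-fold by the processed signal (adjusted p = 0.00155). With normexp background correction its change in the liver was 1.72. In WAT it went from -4.66, -3.31 and -3.80 to 2.16, 1.15 and 3.10, a change of 6.06 ± 0.58 (adjusted p = 0.00806). In the kidney it was at -4.89, -6.64 and -3.69 in young and -0.96, -1.23 and -1.36 in aged mice, with a change of 3.89 ± 0.70 (adjusted p = 0.00382). With normexp background correction the kidney change was 1.86. The aged kidneys lay close together and the young ones were spread. The lung showed the smallest of the 4 rises, from -2.73, -2.27 and -3.16 to -0.92, -0.52 and -0.56 (change 2.05 ± 0.25, adjusted p = 0.0159). Every aged mouse exceeded every young mouse of its tissue for this ligand.

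Ccl4, encoded beside Ccl3, also changed most in WAT and least in the lung. It changed by 4.87 ± 0.51 in WAT (adjusted p = 0.0111), 3.61 ± 0.29 in the liver with 1 of 3 young arrays well above background (adjusted p = 0.00153), 2.67 ± 0.29 in the kidney (adjusted p = 0.000618) and 1.97 ± 0.40 in the lung (adjusted p = 0.0493). The lung levels were -1.89, -1.61 and -2.58 in young and -0.81, 0.47 and 0.16 in aged mice, and the WAT levels -4.10, -3.20 and -3.41 and 1.08, 0.50 and 2.33. In both tissues the groups were apart. The liver levels were -4.46, -4.50 and -3.52 in young and -0.64, -0.34 and -0.67 in aged mice, and the kidney levels -3.55, -3.97 and -2.85 and -0.53, -0.93 and -0.90, again without overlap.

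Cxcr3 was at -1.43, -1.25 and -1.65 in the young lungs and 1.03, 1.40 and 1.31 in the aged lungs, a 6.45-fold difference (adjusted p = 0.00595). In the kidney it went from -2.70, -2.63 and -2.48 to 0.64, 0.44 and 0.26 (change 3.05 ± 0.12, adjusted p = 3.44e-05). Its change was 2.31 ± 0.34 in WAT (adjusted p = 0.0292) and 2.01 ± 0.39 in the liver (adjusted p = 0.0142). Replicates of the lung and kidney lay within a narrow band at either age, while the livers (-2.28, -2.18 and -2.94 in young and 0.31, -1.12 and -0.56 in aged mice) and WAT (-2.09, -1.03 and -1.13 and 0.59, 1.14 and 0.95) were more spread. Cxcr6 was at -1.35, -1.26 and -1.35 in the young livers and -0.54, -0.70 and -0.74 in the aged livers, a change of only 0.66 ± 0.15 (adjusted p = 0.021). It changed by 2.09 ± 0.23 in the lung (adjusted p = 0.0134), 2.44 ± 0.26 in WAT (adjusted p = 0.0111) and 2.88 ± 0.16 in kidneys (adjusted p = 7.5e-05). The lung levels were -0.15, -0.08 and -0.52 in young and 1.51, 2.27 and 1.75 in aged mice, the kidney levels -2.24, -2.21 and -1.89 and 1.04, 0.63 and 0.62, and the WAT levels -2.20, -1.51 and -1.35 and 0.77, 0.79 and 0.69. The groups were apart in all 4 tissues, but the liver call was lost with spike-in scaling and without any 1 of 4 of the 6 livers. In the liver 6 of 9 T cell markers were called higher. In 3 of those 9 tested there, every aged liver lay below every young one, beside 33.1% of all entries. T cell markers were called higher in 7 of 9 in the lung, 8 of 9 in the kidney, where Cd4 was lower (as were 42.6% of all kidney entries), and 6 of 9 in WAT. Their summed level (relative to the 75th percentile, linear) ranged from 13 to 16.7 in young lungs and 29.5 to 41.7 in aged lungs, from 7.55 to 8.93 and 14.1 to 16.4 in kidneys, and from 6.05 to 6.84 and 15.9 to 25.7 in WAT, whereas in the liver the ranges were 43.9 to 61.5 and 40.7 to 43.9. NK cell markers were called higher in 1 of 7 tested in the lung, 2 of 6 in the liver and 0 of 7 in WAT. In the kidney 3 of 6 NK cell markers were higher and 1, Klrb1c, was lower. The part of the T and NK cell markers in the rise of these receptors was not tested.

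**Figure D2:**
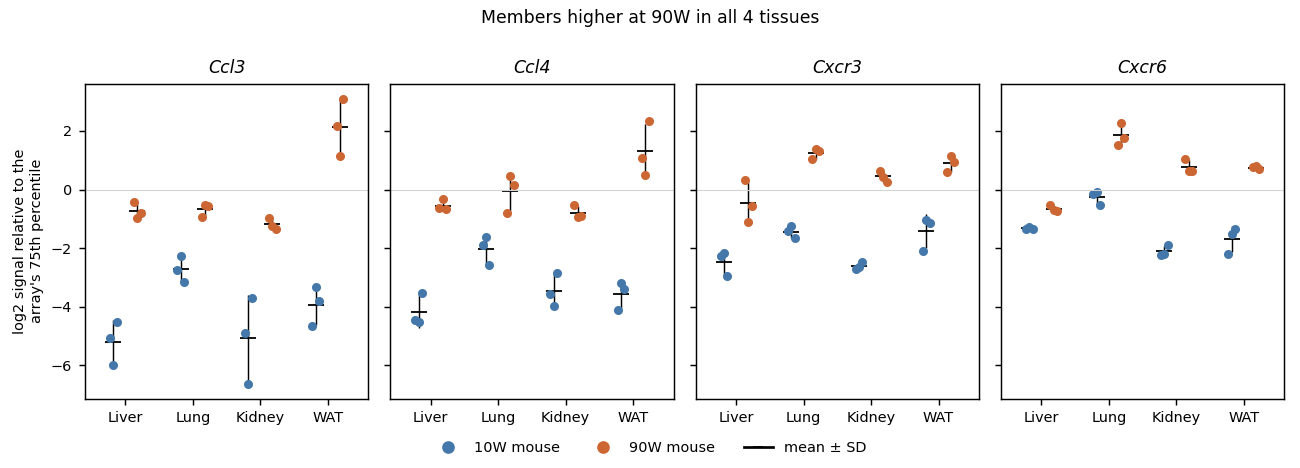
Log2 level of Ccl3, Ccl4, Cxcr3 and Cxcr6 in each 10W and 90W mouse (points, relative to the 75th percentile of the array), with mean and SD per group, in the 4 tissues. In each panel the 3 aged mice lie above the 3 young mice of their tissue.

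Ccl5, the T cell and monocyte chemoattractant RANTES, was called in the liver and kidney. It was at -0.30, -0.24 and 0.19 in young and 3.42, 3.40 and 3.42 in aged kidneys (change 3.53 ± 0.14, adjusted p = 3.33e-05). In the liver it was at 0.37, 0.68 and 0.23 and 3.41, 3.68 and 3.63 (change 3.15 ± 0.18, adjusted p = 0.00148). The groups were apart in WAT as well, at 0.38, 1.41 and 1.83 and 3.40, 4.51 and 5.18, and in the lung, at 3.12, 4.25 and 2.80 and 4.96, 6.86 and 5.36. There the changes of 3.16 ± 0.57 and 2.33 ± 0.60 did not pass the threshold (adjusted p = 0.0503 and 0.0795). A test of the difference in its change between tissues did not pass either (adjusted p = 0.492).

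In the kidney 29 of 31 tested ligands rose and the remaining 2 fell, and 12 of 20 receptors rose, beside 20.6% of all entries higher and 42.6% lower. Of those tested, 5 ligands and 3 receptors had no young array well above background. They could be tested only because of the aged kidneys. The monocyte-attracting CC ligands were among those that rose most. Ccl8 (MCP-2) was at -4.70, -4.42 and -4.69 in the young kidneys and 3.71, 3.15 and 3.11 in the aged kidneys. This was a change of 7.93 ± 0.19, or 243-fold (adjusted p = 9.22e-06), with a gap between the groups many times the spread within them. The size depends on the background correction, and with normexp the change was 5.96. Ccl7 (MCP-3) was at -7.60, -7.27 and -4.37 and 1.35, 0.94 and 0.88, with 1 of 3 young arrays well above background (change 7.47 ± 0.84, adjusted p = 0.000679). Ccl2 (MCP-1) was at -2.39, -2.70 and -0.13 and 4.53, 4.26 and 4.20 (change 6.07 ± 0.66, adjusted p = 0.000617). In both genes the young kidney numbered 3 stood above the other young kidneys but below every aged one. Ccl12 (MCP-5) showed no such gap among the young, at -3.76, -3.32 and -3.21 and 1.35, 1.28 and 1.25 (change 4.72 ± 0.15, adjusted p = 1.86e-05).

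Neutrophil-attracting ligands that bind Cxcr2 rose in the same kidneys. Cxcl1 was at -3.06, -3.08 and -0.82 in young and 2.35, 3.39 and 2.85 in aged mice (change 5.19 ± 0.65, adjusted p = 0.000998), again with the young kidney 3 apart from the other 2. Cxcl5, another ligand of this receptor, was at -6.18, -5.32 and -7.47 and 1.47, 1.04 and 1.03, and Cxcl2 at -7.19, -7.47 and -7.64 and -3.45, -2.90 and -3.42. Neither was well above background in any young kidney, so the rises were at least 98.2-fold and at least 4.53-fold (adjusted p = 0.000161 and 4.78e-05). The receptor Cxcr2 was itself dim, at -7.97, -6.95 and -7.70 and -4.27, -4.59 and -5.45, at least 1.59-fold higher by the processed signal (adjusted p = 0.00137). With normexp background correction its change was 0.04 and was not called by limma (adjusted p = 0.764). Of 7 neutrophil markers tested, S100a8, S100a9 and Retnlg were called higher and Elane lower, Ngp was not tested, and the summed level overlapped between young (34.1 to 38.2) and aged kidneys (34.1 to 40.4).

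Lymphoid ligands, which organise follicles and T cell zones, were all 4 higher in the aged kidney. Cxcl13, the B cell chemoattractant of follicles, was at -7.70, -7.33 and -7.30 in the young kidneys, none of them well above background, and at 3.41, 1.07 and 0.69 in the aged kidneys, a rise of at least 143-fold by the processed signal (adjusted p = 0.000209). With normexp background correction the change of Cxcl13 was 4.81. Aged kidney 1 was the highest. Its receptor Cxcr5 was at -5.80, -7.59 and -7.72 and -3.50, -3.13 and -3.95, also above background only in the aged kidneys and at least 3.76-fold higher by the processed signal (adjusted p = 0.00206). With normexp background correction the change of Cxcr5 was 0.62. Ccl19 and Ccl21a, the ligands of Ccr7 that guide T cells and dendritic cells, changed by 1.81 ± 0.23 and 1.79 ± 0.55 (adjusted p = 0.000951 and 0.0291). Ccl21a was uneven among the aged kidneys, at 3.54, 2.42 and 1.27 against 0.53, 0.39 and 0.95 in the young, and its probe may also read the near-identical copies Ccl21b to Ccl21d. Ccr7 changed by 1.92 ± 0.15 (adjusted p = 0.000255). By its brighter probe Cxcl12, which retains Cxcr4-bearing cells, moved least of all the ligands that rose, by 0.46 ± 0.14 (adjusted p = 0.0288), and this call was lost without any of 4 of the 6 kidneys. It was also lost with spike-in scaling (limma adjusted p = 0.379). The other Cxcl12 probe, well above background on all 6 kidney arrays, changed by 1.05. B cell markers were called higher in 5 of 7 tested and lower in 1, with summed levels of 0.982 to 1.44 in young and 2.83 to 3.97 in aged kidneys. Plasma cell markers were called higher in 5 of 6 (38.3 to 49.1 against 92.3 to 124), dendritic cell markers in 5 of 6 (95.8 to 105 against 97.2 to 111) and lymphatic endothelial markers in 4 of 5, with 1 lower (2.48 to 2.95 against 9.56 to 17.9). Markers of follicular dendritic and high endothelial cells were mixed. Of 6 tested, 2 were called higher (Ltb and Cxcr5 itself) and 2 lower (Cr2 and Glycam1), beside 20.6% of all kidney entries higher and 42.6% lower. The summed level of that list was 2.73 to 2.79 in young and 5.44 to 7.66 in aged kidneys. Their part in the rise of the lymphoid ligands was not tested.

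Ligands of other groups rose in the kidney too. Ccl20, the ligand of Ccr6 made by epithelium, was at -7.96, -7.18 and -6.46 and -0.75, -0.54 and -0.84, at least 26.5-fold higher by the processed signal (adjusted p = 7.8e-05). Ccr6 was at -4.72, -6.00 and -5.50 and -1.05, -1.46 and -1.72, with 1 of 3 young arrays well above background (adjusted p = 0.000314). With normexp background correction the kidney changes of Ccl20 and Ccr6 were 2.61 and 1.87. The Ccr1 ligands Ccl6 and Ccl9 changed by 4.13 ± 0.18 and 5.00 ± 0.20 (adjusted p = 4.2e-05 and 3.33e-05). Ccl17, a ligand of Ccr4, changed by 4.71 ± 0.33 (adjusted p = 0.000175). Cxcl17, a mucosal ligand, was called higher as well (adjusted p = 0.000211), but only 1 of 3 young arrays was well above background, so the size of its rise is uncertain. Ccl24 and Ccl11, the eotaxins that draw eosinophils, changed by 2.94 ± 0.22 and 1.56 ± 0.13 (adjusted p = 0.000202 and 0.000274). With normexp background correction their changes were 1.08 and 0.51, and 2 of 3 young arrays were well above background for Ccl24. All the genes of this paragraph given so far were apart between the ages. The membrane-bound Cx3cl1 was at 3.49, 3.68 and 3.77 and 5.59, 5.62 and 5.00 (change 1.75 ± 0.19, adjusted p = 0.000591), and its receptor Cx3cr1, a marker of resident macrophages and monocytes, changed by 3.36 ± 0.24 (adjusted p = 0.000174). Ccr2, a chemokine receptor of monocytes, changed by 3.39 ± 0.20 (adjusted p = 9.69e-05). Ccr2 was at -2.85, -3.49 and -3.12 in young and 0.24, 0.49 and -0.01 in aged kidneys, and Cx3cr1 at 0.05, -0.45 and -0.12 and 3.59, 3.22 and 2.75. Cxcr4, the receptor of Cxcl12, was at -3.32, -2.45 and -3.32 and -0.72, -0.73 and -1.07 (change 2.19 ± 0.26, adjusted p = 0.000818).

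Ligands of Cxcr3 and Cxcr6 rose as well. Cxcl9, induced by interferon, was at -2.84, -2.41 and -1.94 in young and 0.30, -0.10 and -0.06 in aged kidneys (change 2.44 ± 0.24, adjusted p = 0.000469). Cxcl10 was at 0.09, 0.68 and 1.85 and 2.58, 3.39 and 3.09 (change 2.15 ± 0.47, adjusted p = 0.00789). Cxcl16, the transmembrane ligand of Cxcr6, was at 1.70, 1.62 and 1.66 and 3.02, 3.05 and 2.92 (change 1.34 ± 0.08, adjusted p = 8.53e-05). Xcl1, made by activated T and NK cells, was at -4.74, -4.90 and -4.54 and -2.42, -3.05 and -2.81 (change 1.97 ± 0.18, adjusted p = 0.000392), while its receptor Xcr1 was not tested. With normexp background correction the kidney change of Xcl1 was 0.53. Ccrl2 was at -0.64, -1.10 and -0.72 and 0.22, -0.06 and -0.28 (change 0.78 ± 0.18, adjusted p = 0.00923). For these 5 the aged kidneys all lay above the young, but the call of Ccrl2 was lost with spike-in scaling (limma adjusted p = 0.121). Ccl1, a ligand of Ccr8, was above background only in aged kidneys and at least 3.82-fold higher by the processed signal (adjusted p = 0.0019). Ackr2, a scavenger of inflammatory CC ligands, changed by 1.08 ± 0.26 (adjusted p = 0.0121) by its brighter probe, and its other probe changed by -0.25.

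The 2 ligands that fell in the kidney were Ccl25, which homes gut T cells through Ccr9, and Ccl27a, a ligand of Ccr10. Ccl25 was at 0.65, 0.66 and 0.70 in young and -0.60, -0.52 and -0.34 in aged kidneys (change -1.16 ± 0.09, adjusted p = 0.000252). Ccl27a, whose probe may also read its near-identical copy Ccl27b, was at 2.09, 2.11 and 1.85 and 1.49, 1.59 and 1.60 and fell by 0.46 ± 0.10 (adjusted p = 0.00826). After spike-in scaling neither was called, with changes of -0.96 for Ccl25 and -0.26 for Ccl27a (adjusted p = 0.132 and 0.813). Receptors of the same ligands were not called: Ccr9 was at -3.33, -3.86 and -3.33 and -3.22, -3.82 and -3.21, and Ccr10 at -4.43, -3.70 and -5.39 and -3.01, -3.47 and -3.94.

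Markers of other cells also changed in the kidney, in both directions. Of 6 monocyte markers, Ccr2 among them, 4 were called higher and 1 lower, and their summed level overlapped (154 to 197 in young and 144 to 170 in aged kidneys). Of 10 macrophage markers 8 were called higher and the summed level ranged from 26.1 to 29.7 in young and from 104 to 150 in aged kidneys. All 6 fibroblast markers were called higher (15.7 to 18.4 against 78.4 to 108), and 4 of 6 kidney tubule markers were lower (1127 to 1359 against 516 to 803). The part of these markers in the kidney result was not tested. The count of kidney members called higher was 32 to 41 when each kidney was left out in turn.

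**Figure D3:**
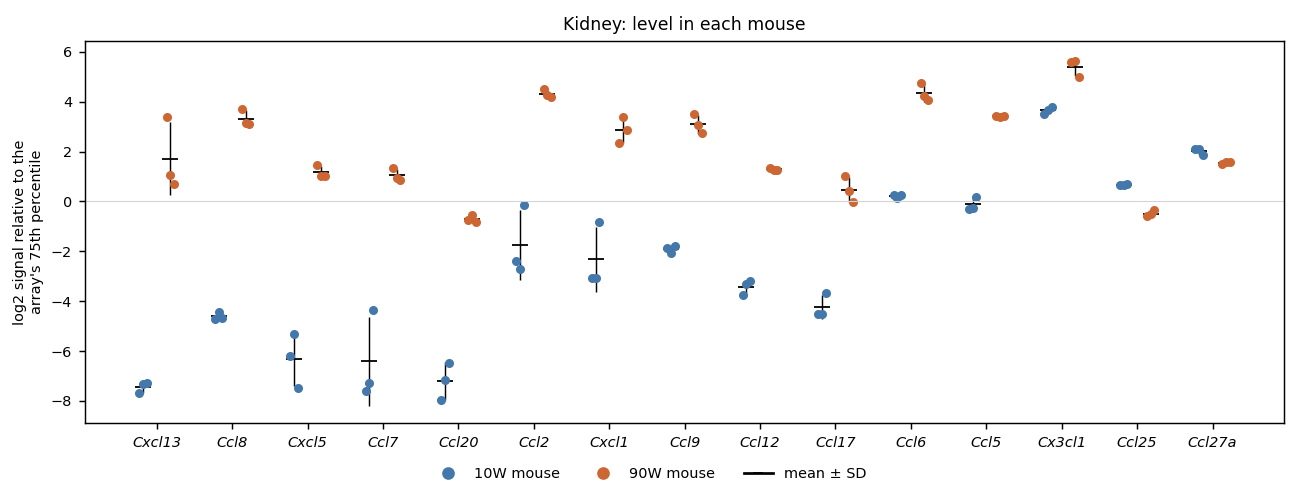
Log2 level of 15 ligands in each young and aged kidney (points, relative to the 75th percentile of the array), with mean and SD per group. For Cxcl13 to Cx3cl1 every aged kidney lies above every young one, and for Ccl25 and Ccl27a every aged kidney lies below.

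The bases before the start of 6 of these genes are shown because their kidney levels rose together and because the consensus sequence of NF-kB, a transcription factor of inflammatory genes, was found before 4 of them and not before the other 2. Sequences are RefSeq promoters of the build GRCm38.p6, 250 bases up to the transcription start, 5′ to 3′ along the strand of the gene. Capitals mark matches to the NF-kB consensus on either strand and, in Cxcl10, also the interferon-stimulated response element (GAAA, any 2 bases, GAAA).
Cxcl1, chr5:90890995-90891244, + strand: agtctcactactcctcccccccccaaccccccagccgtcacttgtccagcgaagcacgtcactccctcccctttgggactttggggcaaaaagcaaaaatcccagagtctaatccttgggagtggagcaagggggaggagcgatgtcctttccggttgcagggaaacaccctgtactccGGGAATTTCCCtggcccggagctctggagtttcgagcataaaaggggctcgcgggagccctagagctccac
Cxcl2, chr5:90903649-90903898, + strand: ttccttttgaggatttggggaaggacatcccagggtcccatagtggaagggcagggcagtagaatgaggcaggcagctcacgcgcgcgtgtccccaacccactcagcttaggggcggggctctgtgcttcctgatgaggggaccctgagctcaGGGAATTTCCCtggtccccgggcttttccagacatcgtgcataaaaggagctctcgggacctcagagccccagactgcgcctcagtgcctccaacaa
Ccl20, chr1:83116516-83116765, + strand: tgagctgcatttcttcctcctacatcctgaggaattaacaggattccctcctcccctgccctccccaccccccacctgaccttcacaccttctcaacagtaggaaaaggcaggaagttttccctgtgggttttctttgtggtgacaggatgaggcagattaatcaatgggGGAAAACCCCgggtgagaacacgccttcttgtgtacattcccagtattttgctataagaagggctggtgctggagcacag
Cxcl10, chr5:92348890-92349139, - strand: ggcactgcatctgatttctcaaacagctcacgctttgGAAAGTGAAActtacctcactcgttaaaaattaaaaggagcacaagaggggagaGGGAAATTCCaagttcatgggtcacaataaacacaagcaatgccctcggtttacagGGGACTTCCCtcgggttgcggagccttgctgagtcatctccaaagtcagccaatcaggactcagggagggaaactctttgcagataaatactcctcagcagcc
Ccl8, chr11:82114935-82115184, + strand: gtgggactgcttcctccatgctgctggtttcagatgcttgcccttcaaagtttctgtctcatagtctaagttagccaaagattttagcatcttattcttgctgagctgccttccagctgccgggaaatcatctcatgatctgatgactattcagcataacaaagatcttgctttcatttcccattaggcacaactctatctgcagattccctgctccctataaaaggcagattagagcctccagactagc
Cxcl13, chr5:95956689-95956938, + strand: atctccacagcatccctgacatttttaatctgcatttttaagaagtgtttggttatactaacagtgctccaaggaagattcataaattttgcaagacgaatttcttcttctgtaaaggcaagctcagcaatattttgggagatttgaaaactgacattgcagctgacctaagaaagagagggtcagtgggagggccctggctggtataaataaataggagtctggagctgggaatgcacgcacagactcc
Cxcl1 and Cxcl2 each hold 2 overlapping matches that make up 1 site, starting 71 and 97 bases before the start. Cxcl10 holds separate NF-kB matches starting 159 and 103 bases before the start and the interferon element further up. Ccl8 and Cxcl13, which were among the kidney ligands that rose most, hold none of these letters in this window. Promoters were found for 44 of the 58 members, with 50 promoters in all, and 10 of the 50 (20%) had an NF-kB match, against 3.9% of all 32851 promoters. Counted by gene, 8 of the 29 members with a promoter that were called higher in the kidney (27.6%) had a match. The share was 10 of 44 (22.7%) among all members with a promoter and 4.46% among all genes with one. The interferon element was in 3 of the 50 (6%), those of Ccl19, Cxcl10 and Cxcl14, and in 2.98% of all promoters. A match is a description of the letters and says nothing of binding in these mice.

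In the liver 17 of 26 tested ligands and 8 of 18 receptors rose, beside 10.5% of all entries. Of the ligands tested, 5 had no young array well above background and could be tested only because of the aged livers. Ccl8 was at -5.37, -4.23 and -6.41 in the young and 1.03, 0.44 and -0.73 in the aged livers (change 5.58 ± 0.63, adjusted p = 0.00301). Only 1 of 3 young livers was well above background for it, and with normexp background correction the change was 2.48. Ccl7 and Ccl12 were not well above background in any young liver and by the processed signal rose at least 11.3-fold and at least 3.59-fold (adjusted p = 0.0151 and 0.00297). With normexp background correction their changes were 1.40 and 0.49. Ccl7 was at -4.57, -5.05 and -4.37 in young and 0.43, -2.70 and -0.94 in aged livers, and Ccl12 at -5.39, -6.48 and -6.77 and -3.12, -2.41 and -2.89. The aged livers were above every young liver for both. Ccl2 was at -1.13, -1.0 and -0.80 and 2.65, 0.34 and 1.55 (change 2.49 ± 0.53, adjusted p = 0.0181). All 4 monocyte-attracting CC ligands thus rose in the liver, and the receptor Ccr2 changed by 2.81 ± 0.68 (adjusted p = 0.0267). Ccr2 was highest in the aged liver 2, at -2.00, 0.37 and -2.09 over the 3 aged livers against -4.30, -4.53 and -3.33 in the young. The monocyte list, which holds Ccr2 itself, had 3 of 6 markers called higher and 1 lower in the liver, with summed levels of 9.09 to 14.3 in young and 23.8 to 301 in aged livers, and its part in these levels was not tested. With normexp background correction the change of Ccr2 in the liver was 1.19 and was not called (adjusted p = 0.0751).

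Cxcl13 was at -0.63, -0.72 and -0.07 in the young and 7.29, 2.28 and 3.0 in the aged livers (change 4.66 ± 1.20, adjusted p = 0.0309). The aged liver 1 stood far above the other aged livers, all of which exceeded the young, and Cxcr5 did not pass the filter in the liver. Cxcl1, in contrast, was highest in the aged liver 2, at 2.83, 5.35 and 2.77 against 2.10, -0.07 and 0.75 in the young (change 2.73 ± 0.81, adjusted p = 0.0463). The receptor Cxcr2 was highest in that same liver, at -3.15, -0.11 and -4.33 against -4.73, -6.78 and -4.42, and its change of 2.77 ± 1.11 was not called (adjusted p = 0.0992). The summed neutrophil markers ranged from 53.1 to 63.2 in young and from 72.7 to 1558 in aged livers, with Ngp as the only 1 of 8 called. Their part in the levels of Cxcl1 and Cxcr2 was not tested.

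Ccl6 and Ccl24, ligands of Ccr1 and Ccr3, which are made by myeloid cells, changed by 2.48 ± 0.35 and 1.45 ± 0.31 in the liver (adjusted p = 0.00565 and 0.0191). Cxcl16, the ligand of Cxcr6, was at -0.09, -0.26 and -0.14 and 1.65, 1.23 and 1.15 (change 1.51 ± 0.18, adjusted p = 0.00375). Cxcl9, an interferon-induced ligand of Cxcr3, changed by 1.39 ± 0.29 (adjusted p = 0.0165), Cx3cl1 by 1.18 ± 0.22 (adjusted p = 0.0125) and Ccl19 by 0.89 ± 0.18 (adjusted p = 0.0156). By the processed signal Cxcl5 and Xcl1, above background only in aged livers, were at least 2.33-fold and at least 2.2-fold higher. With normexp background correction their changes were 0.12 and 0.06, and neither was called by limma (adjusted p = 0.449 and 0.733). Xcl1 was not called with spike-in scaling either (adjusted p = 0.102). Ccl6 was at 2.02, 2.41 and 2.87 in young and 5.10, 5.41 and 4.25 in aged livers and Cxcl9 at 0.42, 0.95 and 0.47 and 2.08, 1.48 and 2.46. Both were apart between the ages. Among receptors, Cxcr4 was at -6.75, -4.51 and -3.57 and -1.59, 0.05 and -2.49 (change 3.6 ± 0.92, adjusted p = 0.0303), with a wide spread in both groups and 1 of 3 young livers well above background. With normexp background correction its change was 1.20 and was not called (adjusted p = 0.0593). Cx3cr1 was at -2.43, -4.19 and -2.09 in young and -0.52, 0.50 and -1.14 in aged livers. Cx3cr1 changed by 2.52 ± 0.62, Ccrl2, an atypical receptor that presents chemerin, by 1.01 ± 0.26 and Ackr1, the Duffy antigen of venules and red cells, by 0.98 ± 0.26 (adjusted p = 0.0283, 0.0331 and 0.0343). With spike-in scaling the liver calls of Ccl24, Cxcl16, Cxcl9, Cx3cl1, Ccl19, Ccrl2 and Ackr1 were lost (limma adjusted p = 0.147 to 0.596). Ccr9 was the only member called lower in the liver, at -2.45, -3.17 and -3.04 and -4.10, -4.06 and -3.40 (change -0.97 ± 0.27, adjusted p = 0.0408). Cxcl12 was not called and overlapped between the ages, at 5.96, 5.94 and 6.29 and 6.23, 6.06 and 6.52. The same held for Ccr7, at -1.87, -1.58 and -1.60 and -0.63, -2.61 and -0.63.

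Macrophage markers were called higher in 8 of 10 in the aged liver, with summed levels of 81.9 to 109 in young and 316 to 451 in aged livers, and fibroblast markers in 5 of 6 (56.3 to 71.3 against 138 to 157). Their part in the liver result was not tested. Leaving out 1 liver at a time gave 12 to 20 members called higher, and the lowest count came without the young liver 2, whereas leaving out the young liver 1 gave 13 and the aged liver 1 gave 16.

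In WAT 5 of 28 tested ligands and 4 of 21 receptors rose, beside 2.01% of all entries. Besides Ccl3 and Ccl4, described above, Ccl8 rose. It was at 1.45, 2.07 and 2.15 in young and 5.06, 5.85 and 6.53 in aged WAT (change 3.92 ± 0.41, adjusted p = 0.0111). Ccl12 changed by 1.83 ± 0.27 (adjusted p = 0.0294), from -1.69, -0.95 and -1.21 to 0.21, 0.79 and 0.64. Ccl2, in contrast, was at 2.13, 2.19 and 2.29 and 3.67, 4.06 and 1.94, so that the groups overlapped (change 1.02 ± 0.55, adjusted p = 0.366). Ccr2 itself was not called, with a change of -1.11 ± 0.62 (adjusted p = 0.377).

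Of the genes that guide B cells, Cxcl13 and Ccr6 rose in aged WAT. Cxcl13 was at -3.59, -1.71 and -1.12 and 3.18, 1.91 and 4.47 (change 5.32 ± 0.86, adjusted p = 0.0397), and the call was lost without any 1 of the 6 samples. Its receptor Cxcr5 was at -6.49, -4.44 and -4.18 and -1.87, -1.04 and -1.90, with the groups apart and a change of 3.43 ± 0.65 that was not called (adjusted p = 0.0576). Ccr6, which B cells and some T cells carry, was at -5.75, -4.39 and -4.43 and -1.38, -0.96 and -1.15 (change 3.70 ± 0.40, adjusted p = 0.0125). Ccr7 was apart between the ages without being called (change 2.42 ± 0.47, adjusted p = 0.0624), as was Cxcr4 (change 2.48 ± 0.52, adjusted p = 0.0716). B cell markers were called higher in 5 of 8, with summed levels of 1.60 to 2.51 in young and 8.11 to 13.4 in aged WAT, and 2 of 10 macrophage markers were called higher (59.7 to 186 against 337 to 710). Their part in these levels was not tested.

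Ccrl2 was at -1.13, -0.87 and -0.62 in young and 1.84, 1.02 and 2.41 in aged WAT (change 2.63 ± 0.37, adjusted p = 0.0277). The atypical receptor Ackr4, which scavenges Ccl19, Ccl21 and Ccl25, went the other way, at 0.93, -0.81 and -0.13 in young and -3.91, -3.12 and -4.13 in aged WAT, and fell by 3.72 ± 0.50 (adjusted p = 0.0238). Ccl27a was at 1.73, 1.59 and 1.56 and 0.66, 0.53 and 0.80, and fell by 0.96 ± 0.16 (adjusted p = 0.0428). For both the aged samples lay below every young one, but the call of Ccl27a was lost with spike-in scaling (limma adjusted p = 0.299). The neutrophil ligand Cxcl1 was higher in each aged sample without a call, at -2.91, -0.80 and -2.16 in young and 1.45, 3.59 and 0.20 in aged WAT (change 3.70 ± 0.96, adjusted p = 0.112). Cxcr2 changed by 4.06 ± 1.56 (adjusted p = 0.236), and the summed neutrophil markers spread from 32.7 to 130 in young and from 36.9 to 970 in aged WAT. Cxcl12 was read differently by its probes in WAT: the brighter one changed by -0.04 and the other by 2.47, both well above background on all 6 arrays. The WAT counts were sensitive to single samples: without the aged WAT 1 only 1 member was called higher, without the aged WAT 3 it was 2, without the aged WAT 2 it was 3, and without the young WAT 2 or 3 it was 5.

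In the lung few members moved. Of 31 ligands tested 2 rose, Ccl3 and Ccl4, and 4 fell, and 5 of 21 receptors rose, beside 2.72% of all entries higher and 2.89% lower. Cxcl15 (lungkine), a neutrophil-attracting chemokine of lung epithelium, was at 4.98, 4.87 and 4.78 in young and 3.71, 3.48 and 3.21 in aged lungs, and fell by 1.41 ± 0.15 (adjusted p = 0.0131). Cxcl14, a ligand of epithelia and fibroblasts, fell by 1.37 ± 0.18 (adjusted p = 0.0183) from 4.17, 3.95 and 4.28 to 2.83, 2.45 and 3.02. Eotaxin Ccl11 was at 0.28, 0.15 and -0.39 and -1.63, -1.85 and -1.28, and fell by 1.60 ± 0.23 (adjusted p = 0.0228). Ccl28, a mucosal ligand of Ccr10 and Ccr3, was dim, at -4.50, -4.82 and -4.53 and -6.82, -5.99 and -6.00, with 1 of 3 aged arrays well above background (adjusted p = 0.0255). For each of the 4 the aged lungs lay below the young lungs without overlap. The summed fibroblast markers were also lower in every aged lung (104 to 134 against 41.5 to 64.4), with 0 of 6 called by limma, 6 at an unadjusted p under 0.05 and a median change of -1.67. Adipocyte markers were also lower (37.4 to 63.0 against 8.44 to 25.7, with Plin1 and Cidec called), while lung epithelial markers overlapped (1698 to 1770 against 1582 to 2324). Their part in the 4 falls was not tested.

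**Figure D4:**
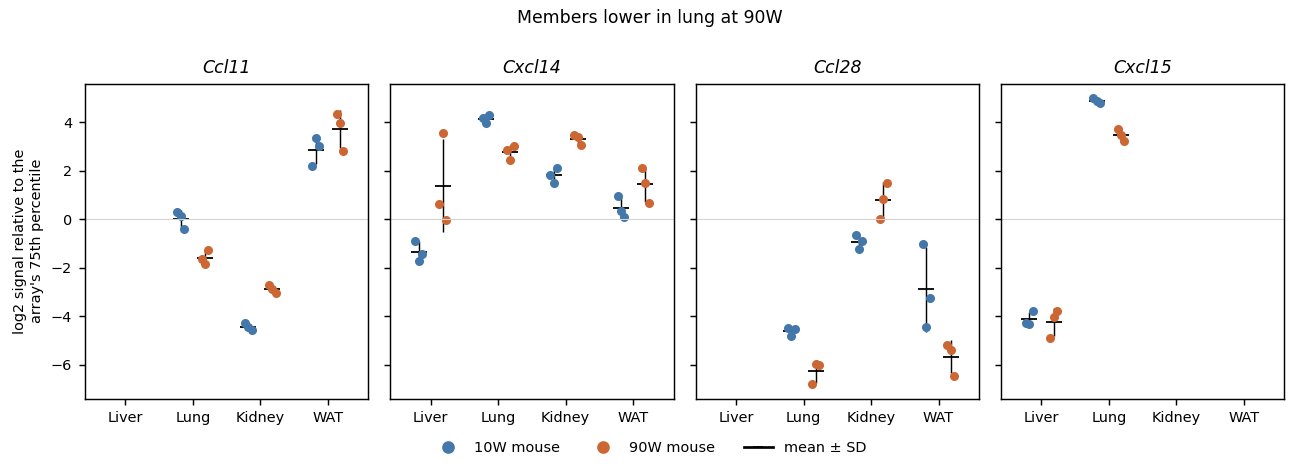
Log2 level of the 4 members called lower in the aged lung, Ccl11, Cxcl14, Ccl28 and Cxcl15, in each mouse (points, relative to the 75th percentile of the array), with mean and SD per group, in each tissue where they were tested. In the lung the aged mice lie below the young, and in the kidney Ccl11, Cxcl14 and Ccl28 lie above them.

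Ccl11, Cxcl14 and Ccl28 were called higher in the aged kidney and lower in the aged lung. For all 3 the change differed between tissues by the F test (adjusted p = 0.000486, 0.00825 and 0.00321). In the kidney Cxcl14 was at 1.82, 1.5 and 2.12 and 3.45, 3.38 and 3.07, and Ccl28 at -0.65, -1.25 and -0.91 and -0.01, 0.85 and 1.48. A second Cxcl14 probe was well above background on 0 of 6 lung arrays and 2 of 6 kidney arrays and changed by 0.13 and -0.26. Cxcl15 was not tested in the kidney.

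Besides Cxcr3 and Cxcr6, the receptors Cxcr1, Ackr1 and Cxcr4 rose in the aged lung. Cxcr1, a receptor of neutrophil chemokines, was at -3.17, -3.02 and -3.39 and -0.54, 0.66 and 0.26 (change 3.32 ± 0.31, adjusted p = 0.0109). Cxcr2 overlapped between the ages, at -2.69, -2.19 and -0.90 and 0.80, 2.36 and -0.91 (change 2.68 ± 0.89, adjusted p = 0.128). The summed neutrophil markers went from 66.5 to 154 in young lungs to 182 to 1425 in aged lungs, with Ngp called out of 8, and their part in the levels of Cxcr1 was not tested. Ackr1 was at -2.65, -3.13 and -4.04 and -1.12, -1.58 and -0.57 (change 2.19 ± 0.42, adjusted p = 0.0425). The red cell list, which holds Ackr1 itself, had summed levels of 46.6 to 248 in young and 582 to 973 in aged lungs. Cxcr4 was tight within each age, at 0.26, 0.25 and 0.43 and 1.14, 1.09 and 1.13 (change 0.80 ± 0.09, adjusted p = 0.0147). Its call was lost with spike-in scaling (limma adjusted p = 0.122).

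Cxcl13 was uneven among the aged lungs. It was at -0.86, -0.78 and -0.67 in the young and 0.85, -2.40 and 4.64 in the aged lungs (change 1.81 ± 1.66, adjusted p = 0.515). Cxcr5 was at -0.73, -1.27 and -1.95 and 0.47, -2.25 and 0.00 (adjusted p = 0.561), and Ccr7 was at 1.82, 1.40 and 1.55 and 2.34, 0.14 and 2.34. In all 3 the aged lung 2 lay below every young lung. Ccl2 overlapped, at 1.01, -0.47 and -1.69 and -0.69, -2.24 and 0.04, as did Cxcl1, at 0.00, -2.40 and -2.53 and -0.48, -2.79 and -0.97. Cxcl12 was at 4.85, 4.92 and 5.08 and 5.33, 4.87 and 5.06, Ccr2 at -0.40, -0.42 and -0.77 and 0.07, -0.24 and -0.73, and Cx3cr1 at 1.19, 1.26 and 0.52 and 2.02, -0.15 and 2.56. None of these 8 was called. The lung calls depend on the young samples: without the young lung 1, 0 members were called higher and 0 lower by limma (10 and 4 had an unadjusted p under 0.05), without the young lung 2 it was 1 and 0, and without the young lung 3 it was 2 and 1.

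**Figure D5:**
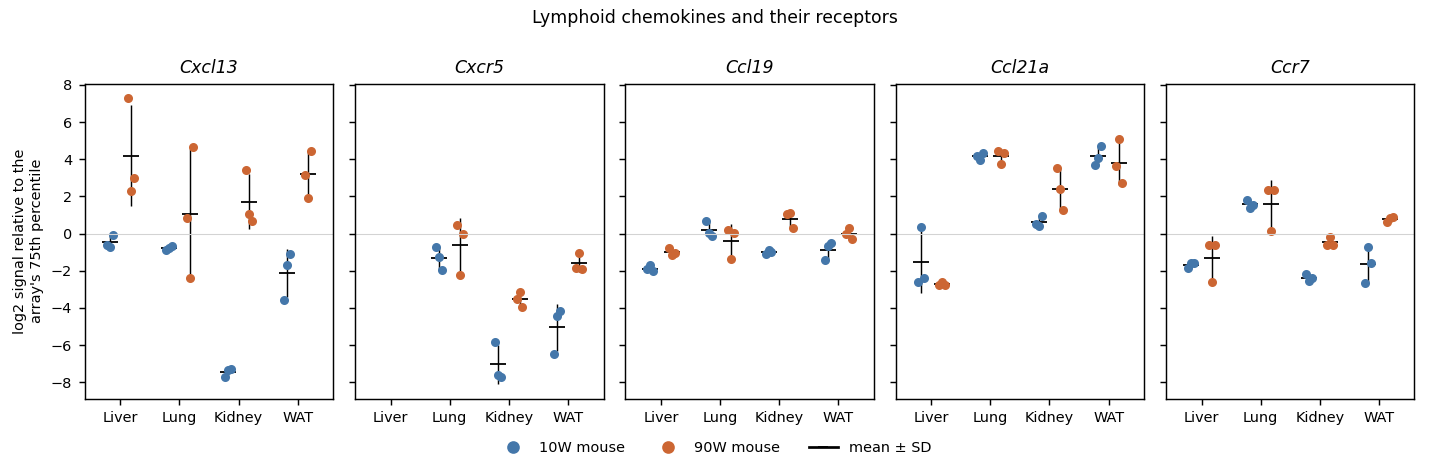
Log2 level of Cxcl13, Cxcr5, Ccl19, Ccl21a and Ccr7 in each mouse (points, relative to the 75th percentile of the array), with mean and SD per group and no point where a gene was not tested. Cxcl13 is above every young mouse in the aged kidneys, livers and WAT and is spread from -2.40 to 4.64 in the aged lungs.

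Members differed between tissues in how far they moved. Of 56 members in a limma fit of all 24 arrays, the change with age differed between tissues in 33 at adjusted p under 0.05, against 30.5% of all entries. This fit also takes in tissues where a member was dim, so a difference can rest on levels near background. It gives all tissues 1 shared spread and treats samples as independent, although 1 mouse may have given more than 1 tissue. The SE and p of the contrasts hold only under these assumptions. With all arrays in 1 fit, 10.9% of WAT entries were called higher and 10.4% lower, against 2.01% and 0.579% with WAT alone. The kidney change exceeded the mean of the other tissues in 25 members (7.43% of all entries) and was below it in 3 (10.6%). Its excess was 5.09 ± 0.88 for Ccl2 (adjusted p = 0.000697). Ccl7, Ccl8, Ccl17, Ccl20 and Cxcl5 passed in the same direction, but their young arrays were not all well above background in the kidney or the liver, and no size of the excess is given for them. The lung change was below the mean of the others in 18 members (4.23%) and above it in 1, Cxcr1 (5.09%). For Ccl2 the lung difference was -3.77 ± 0.88 (adjusted p = 0.0129). The other monocyte-attracting ligands Ccl7, Ccl8 and Ccl12 were below as well (adjusted p = 0.00373, 0.00839 and 0.00175), with young livers mostly not above background. WAT was above in 5 members (6.69%) and below in 5 (4%). Ccl4 exceeded the other tissues in WAT by 2.47 ± 0.55, with 1 of 3 young livers well above background, and Ccl3 did so too (adjusted p = 0.0203), whereas the monocyte receptors Ccr2 and Cx3cr1 differed by -3.26 ± 0.66 and -2.81 ± 0.69. The liver was above in 1 member, Cxcl14 (4.11%), and below in 8 (6.42%), including Cxcr6 (-1.81 ± 0.24, adjusted p = 0.000165). For Cxcr3, Cxcl10 and Cxcl12 the test did not pass (adjusted p = 0.234, 0.725 and 0.664), which does not show that their changes are equal.

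Genes that act downstream of the receptors or beside the ligands were taken from a list of 38. In the kidney 29 of 37 tested were called higher and 2 lower, in the liver 25 of 38 were higher, in the lung 17 of 37 and in WAT 5 of 37, beside the shares of all entries given above. The median change was 1.70, 1.93, 0.62 and 0.92 in that order. The platelet chemokine Pf4 changed by 4.89 ± 0.55 in the liver and 3.19 ± 0.45 in the kidney (adjusted p = 0.00302 and 0.0015). Rgs1, which damps chemokine receptor signalling in lymphocytes, was called higher in all 4 tissues, with a change of 7.09 ± 0.62 in WAT and 3.91 ± 0.54 in the lung (adjusted p = 0.00699 and 0.0211). Pik3r5, a subunit of the PI3 kinase that acts behind these receptors, was also called in all 4, by 2.84 in the liver and 4.38 in the kidney. The 2 genes lower in the kidney were Mif, a cytokine that binds Cxcr2 and Cxcr4, which fell by 0.70 ± 0.08, and the kinase Ptk2b, which fell by 0.48 ± 0.07.

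Cytokines and transcription factors that induce chemokines formed a list of 23. In the kidney 19 of 23 were called higher and 1 lower, beside 20.6% and 42.6% of all entries. In the liver 10 of 21 were higher (10.5% of all entries), in the lung 4 of 23 (2.72%) and in WAT 2 of 22 (2.01%). Il1b was called higher in the kidney (3.19 ± 0.50), the liver (1.83 ± 0.31) and the lung (1.95 ± 0.38). Lymphotoxin beta (Ltb), which organises lymphoid tissue, changed by 3.81 ± 0.17 in kidneys (adjusted p = 4.19e-05) and 2.82 ± 0.30 in WAT (adjusted p = 0.0118). Tnf was the gene that went the other way in the kidney, where it fell by 0.53 ± 0.08 (adjusted p = 0.00173). Of all kidney entries 42.6% were called lower. Ccl26, not well above background on any kidney array, went from a mean of -7.39 to -7.97 on this scale. A fall of the size of that of Tnf may thus reflect the scaling, which was not tested. Tnf was not called in the other tissues.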

How the data were processed

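RNA of 24 samples was hybridised to Agilent mouse arrays of 1 colour with 62976 spots. The authors deposited scanner output of Agilent Feature Extraction (version 11.0.1.1 per the file headers), which gives each spot a processed signal, a background-subtracted intensity on a linear scale. The headers name a mouse design on the build mm9, whereas the methods name a human kit, and the headers were followed. Here log2 of this signal minus the 75th percentile of the array was used. Outlier spots were left out (1841 in all, at most 135 on 1 array), and control spots were not tested. Of 56605 probes, 32994 (58.3%) matched a symbol of the RefSeq annotation (GRCm38.p6) by accession. The brightest probe stood for a gene, and a gene or unmatched target was tested where it was well above background in 3 or more of a tissue's 6 samples. limma 3.58.1 (R 4.3.3) compared the ages in each tissue, with Benjamini-Hochberg adjustment over all entries tested and a threshold of 0.05. Differences between tissues came from 1 fit of all arrays with an F test and contrasts of each tissue with the mean of the others.

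Where no young array was well above background, a lower bound of the fold was computed from the mean of the aged group and, on each young array, the higher of the probe's own level and the lowest level among probes well above background. This bound holds for the processed signal only, and normexp background correction gave smaller changes for members named above. The number of arrays, 3 a group, limits the precision. The labels number the samples of a group, and p-values measure the spread between these samples. Named members were those called in 2 or more tissues, the 5 with the largest changes in each tissue and direction, and partner receptors, with the values in each mouse for most of them. Some others were named after their values were seen, and the rest are given by counts. 1 member enters the counts and is not reported here by itself. Members, lists and rules were chosen with earlier results of these data known. The steps were tested on simulated data. Other background corrections, scalings, filters, probe summaries, fits and left-out samples were tried.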

Additional observations from a re-analysis of the deposited data

Results flagged for a closer look

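Of 56 members in the limma fit of all arrays, 33 passed the F test, beside 30.5% of all entries. Members given by name were mostly chosen for their calls or changes in these same data. A difference can rest on tissues where a member was near background, as for Ccl20, with no WAT array well above background. For 27 of the members given by name, the change from 10W to 90W differed between the 4 tissues by this F test, with adjusted p given in brackets. Among genes that guide monocytes these were Ccl2 (0.00116), Ccl7 (0.000545), Ccl8 (0.00292), Ccl12 (0.000728) and Ccr2 (0.00115), for which the kidney change exceeded the mean of the others. Among ligands of macrophages and T cells they were Ccl3 (0.00878), Ccl4 (0.00674) and Ccl6 (0.00271), and among ligands of eosinophils and mucosa Ccl11 (0.000486), Ccl24 (0.0366) and Ccl28 (0.00321). Among neutrophil ligands and a receptor they were Cxcl1 (0.0498), Cxcl5 (0.000728), Cxcl15 (0.00136) and Cxcr1 (0.00138). The lung change of Cxcr1 was above that of the other tissues, and Cxcl15 was not tested on its own in the kidney and WAT. Genes of lymphoid and gut homing were Cxcl13 (0.0404), Ccl19 (0.00914), Ccl20 (0.000299), Ccl25 (0.0055) and Ccr9 (0.00888). The remaining ligands and receptors were Cxcl14 (0.00825), Cxcl16 (0.00331), Cxcr6 (0.000213), Cx3cl1 (0.0111) and Cx3cr1 (0.00482), and the atypical receptors Ackr4 (0.00986) and Ccrl2 (0.000583). In WAT Ackr4 fell and Ccrl2 rose. No formal outlier test was made, since it needs more than 3 mice a group.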

How the results depend on the processing

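With 3 samples a group, calls in the lung and WAT were the least stable. Of 83 called changes of members given by name, 0 changed sign under any alternative run and 34 stayed past the threshold in every one, 29 of 35 in kidneys, 5 of 26 in livers, and 0 of 11 in lungs and in WAT each. Of 69 uncalled ones, 24 changed sign. Members called higher in the kidney numbered 39 to 43 under all settings with every sample kept. The cause of the shifts below was not tested.

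Members called lower in the liver (1) became 2 with normexp background correction, 0 with quantile normalization (2 at an unadjusted limma p under 0.05), 2 with spike-in scaling, 5 with no filter on dim probes, 2 with the mean of a gene's probes and 2 with all 24 arrays in 1 fit. In the lung the lower count (4) became 2 with no filter and 2 with 1 fit. In the kidney it (2) became 5 with normexp, 0 with spike-in scaling (1 unadjusted), 4 with no filter and 1 with 1 fit. In WAT it (2) became 1 with quantile normalization, 1 with spike-in scaling, 1 with no filter, 1 with the mean of probes and 4 with 1 fit, and the higher count (9) became 16 with spike-in scaling and 22 with 1 fit. With normexp background correction the changes of Ccr2 (1.19), Cxcr4 (1.20), Cxcl5 (0.12) and Xcl1 (0.06) in livers, Cxcr2 in kidneys (0.04) and Ccl28 in lungs (-0.22) were not called (limma adjusted p = 0.0593 to 0.764). The methods' t-test with Benjamini-Hochberg adjustment gave 9 higher and 0 lower in the liver (24 and 1 unadjusted), 2 and 0 in lungs (10 and 4), 39 and 2 in kidneys, and for WAT 0 and 0 (19 and 3).

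Leaving out 1 sample at a time gave 12 to 20 members higher and 0 to 2 lower in the liver, 32 to 41 and 2 in kidneys, 0 to 9 and 0 to 4 in lungs, and for WAT 1 to 8 and 0 to 1. Members whose change differed between tissues (33) numbered 29 to 36 without 1 sample and 31 to 38 under the other settings.

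Samples with the same number came from mice of different age, and the correlation of their deviations was -0.17 to 0.18, so the numbers do not pair them. With the replicate number as a block, 9 members were higher and 0 lower in the liver (25 and 1 at an unadjusted p under 0.05), 41 and 2 in kidneys, 0 and 0 in lungs (12 and 7), and for WAT 8 and 0 (24 and 6). A fit with the slide as a block could not be made, since each tissue lies on 1 slide.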
